A study of Saccharomyces cerevisiae with 4 samples.

Results

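The genes described here are those that Saccharomyces cerevisiae uses to take up and break down poor nitrogen sources, together with the regulators that switch them. The members were given as a list of systematic names, and all 33 were found among the 6600 coding sequences of the table. They comprise 9 permeases, 18 enzymes, 5 regulators of the GATA system and UGA3, the activator of the genes for 4-aminobutyrate (GABA) use. Ribosome profiling was done on 2 strains of the 74D-694 background, a laboratory strain used in work on prions and on translation termination. The wild type (WT) carries OAZ1 with its natural frameshift, and the mutant carries an in-frame OAZ1 in its place, so that antizyme is read with no change of frame. Each strain had 2 libraries. Both strains were grown in synthetic medium to mid-exponential phase and received cycloheximide at 50 µg/mL, which holds ribosomes on the mRNA. The labels give neither the nitrogen source of the medium nor the origin of the replicates. Where these were not separate cultures, the p-values reflect technical spread alone. Paired values are given in the order replicate 1, replicate 2.

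Yeast prefers glutamine, asparagine or ammonium. While these are plentiful, nitrogen catabolite repression keeps the genes for poorer sources at a low level: URE2 holds the activator GLN3 in the cytoplasm, and little GLN3 or GAT1 reaches the GATA sequences in the promoters. When good sources run short, GLN3 and GAT1 enter the nucleus and turn on permeases such as GAP1 and enzymes such as those of allantoin use, while DAL80 and GZF3, which bind the same GATA sequences, act as repressors. The system touches polyamine synthesis through arginase, CAR1, which splits arginine into urea and ornithine, the substrate of the ornithine decarboxylase that antizyme targets.

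The GATA sequences in the promoters are shown first, since they are what most of these genes have in common. In the 300 bases before the start codon, the letters GATAAG were searched on both strands, overlapping matches each being counted. They were present for 19 of the 33 members, or 57.6%, against 14.8% of 5897 coding sequences of the table, and at least 2 matches were present for 24.2% of members against 1.66%. The 4 copies of ASP3 are among the 19 and share 1 promoter sequence, so that 16 of 30 distinct promoters (53.3%) held a match. The promoters below are those with the most matches (DAL3, GAT1, DAL7 and DAL80, the last 2 tied with GZF3 at 3 matches), and that of GAP1, which was added after its values were seen. Each is written 5′ to 3′ toward the start codon, from the RefSeq R64 assembly (sacCer3), with each match in capitals as GATAAG or, on the other strand, CTTATC.
DAL3 (chrIX:415618-415917, minus strand): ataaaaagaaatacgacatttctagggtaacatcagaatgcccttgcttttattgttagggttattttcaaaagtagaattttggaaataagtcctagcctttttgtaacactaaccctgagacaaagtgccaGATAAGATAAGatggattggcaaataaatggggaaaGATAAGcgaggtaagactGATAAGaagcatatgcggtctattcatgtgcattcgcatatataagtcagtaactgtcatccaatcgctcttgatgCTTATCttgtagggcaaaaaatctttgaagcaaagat
GAT1 (chrVI:95666-95965, plus strand): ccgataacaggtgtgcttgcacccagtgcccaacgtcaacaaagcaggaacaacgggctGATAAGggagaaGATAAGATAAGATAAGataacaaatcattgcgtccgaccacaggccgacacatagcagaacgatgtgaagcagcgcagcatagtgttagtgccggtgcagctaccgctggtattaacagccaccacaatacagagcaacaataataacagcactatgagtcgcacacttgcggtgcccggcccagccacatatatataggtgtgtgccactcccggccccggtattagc
DAL7 (chrIX:414680-414979, minus strand): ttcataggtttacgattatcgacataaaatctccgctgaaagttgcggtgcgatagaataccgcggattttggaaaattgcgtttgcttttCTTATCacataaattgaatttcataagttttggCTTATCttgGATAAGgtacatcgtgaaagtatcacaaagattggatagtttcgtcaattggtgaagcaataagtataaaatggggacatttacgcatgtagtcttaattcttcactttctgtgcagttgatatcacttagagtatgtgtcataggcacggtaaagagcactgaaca
DAL80 (chrXI:506598-506897, plus strand): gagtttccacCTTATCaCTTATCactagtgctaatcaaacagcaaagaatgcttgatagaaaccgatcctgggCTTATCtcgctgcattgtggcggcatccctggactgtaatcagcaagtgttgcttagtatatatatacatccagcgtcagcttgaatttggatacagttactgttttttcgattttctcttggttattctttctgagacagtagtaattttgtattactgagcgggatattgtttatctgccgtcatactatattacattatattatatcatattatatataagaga
GAP1 (chrXI:514763-515062, plus strand): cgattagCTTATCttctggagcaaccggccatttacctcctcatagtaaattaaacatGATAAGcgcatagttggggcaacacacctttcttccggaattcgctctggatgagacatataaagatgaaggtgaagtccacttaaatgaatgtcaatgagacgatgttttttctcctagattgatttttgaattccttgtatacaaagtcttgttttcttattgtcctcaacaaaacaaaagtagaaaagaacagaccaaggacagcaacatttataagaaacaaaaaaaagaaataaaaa

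DAL3 had 5 matches, the first 2 sharing a base and spanning -167 to -157, where -1 is the base before the start codon. GAT1, itself a GATA activator, had 4 matches between -241 and -214, of which the last 3 overlap as a chain. DAL80 had 3 matches, of which a pair lies within -290 to -278. In 500 bases, MEP2 had the most of any member with 7, MEP3 and DAL3 had 5 each, and DAL4, GAP1 and GAT1 had 4 each. There 72.7% of members (71.0% of 31 distinct sequences) had a match, against 22.9% of 5896 coding sequences. ASP1, CAR1, CAR2, GDH2, GLN1, PUT4, UGA1, UGA2 and URE2 had none in 500 bases, which says only that these letters are not in that window. The DNA-binding zinc fingers of GLN3, GAT1, DAL80 and GZF3 were located as a pattern of 4 cysteines over 25 residues. DAL80 and GZF3 share 19 of the 25 residues and GLN3 and GAT1 share 16. These counts include the 4 cysteines, which the search itself required.

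The libraries differed in depth and in profile. WT had totals of 29671498 and 10202557 counts, against 7571371 and 2826895 for mutant. OAZ1, the exchanged gene, had 12.7 and 10.7 CPM in WT against 20.5 and 18.1 CPM in mutant. CPM is the count scaled to a total of 1000000 per library, here with TMM factors, which centre the bulk of genes. The log2 fold change of OAZ1 was 0.73 (SE 0.22; adjusted p = 0.755 by edgeR), or 0.87 without WT replicate 1. WT replicate 1 stood apart, genes for proteins with a hydrophobic segment holding 20.7% of its counts against 16.6% to 17.2% in the other libraries. A ribosome count cannot tell a change of mRNA from a change of translation, since no RNA libraries were analysed here.

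Of the 33 members, 27 had enough counts to be tested, DAL4 and UGA4 had counts below the filter, and the 4 copies of ASP3 had none. No member passed the test between the strains at an adjusted p of 0.05 (edgeR's quasi-likelihood test, Benjamini-Hochberg over all genes), and neither did any of the 5233 genes tested (0%). At an unadjusted p under 0.05 there was 1 of 27 members, ASP1, against a background of 5.45%. DESeq2 called none of the members either (background 0.0683%). In TMM-normalized CPM, the mutant libraries both lay above the WT libraries for 7 members (background 19.1%) and both below for 3 (background 17.9%). The log2 fold changes, mutant over WT, ran from -1.29 for DAL5 to 0.45 for ASP1, with a median of -0.15 beside -0.01 over all genes tested. Leaving out WT replicate 1 gave a median of 0.13 and leaving out WT replicate 2 one of -0.26, so its sign depends on which WT library is used.

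**Figure D1:**
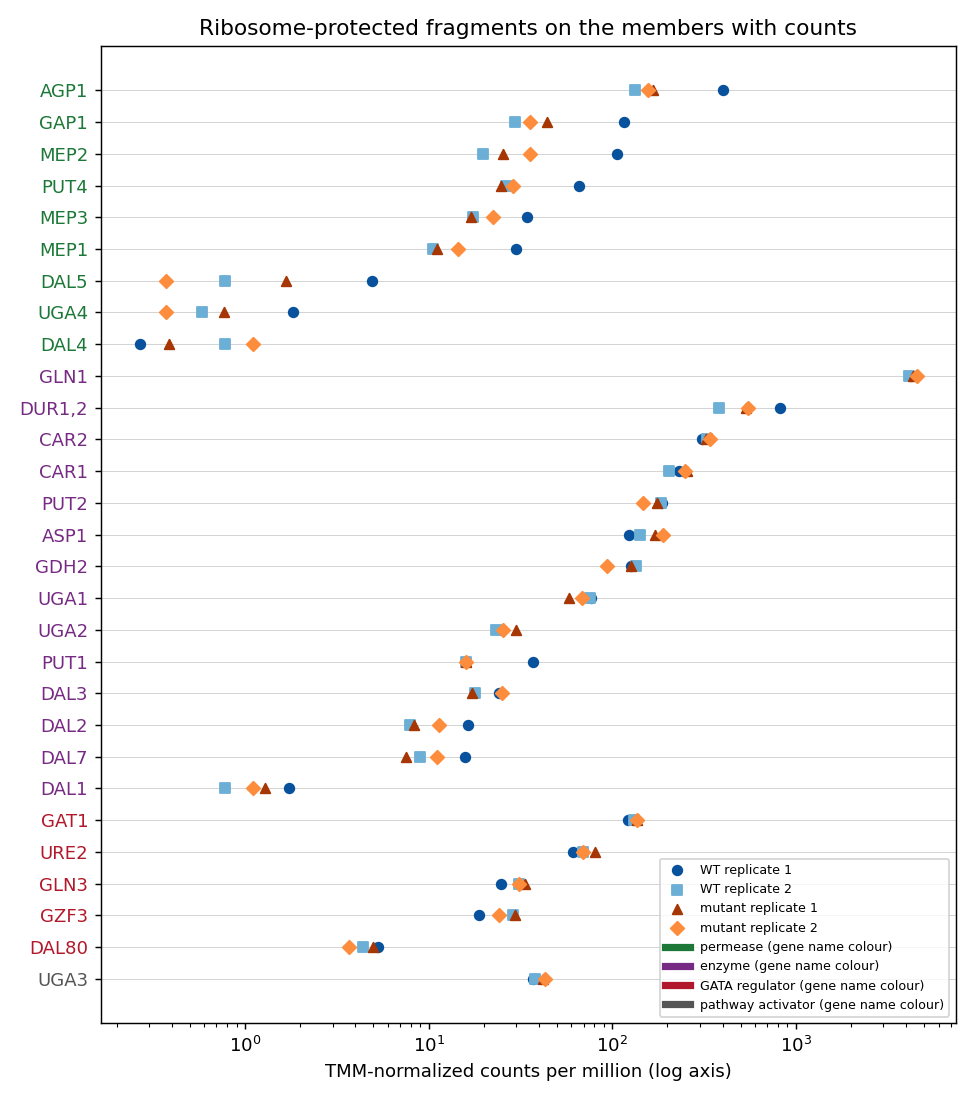
TMM-normalized CPM (log axis) of the 29 members with counts, 1 symbol per library, gene names coloured by role. For AGP1, GAP1, MEP2, PUT4, MEP1 and MEP3 the WT replicate 1 symbol lies to the right of the other 3, while for GLN1, CAR2, CAR1 and GAT1 the 4 symbols lie close together.

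For all 7 permeases tested, the gap on the log2 scale between the WT libraries was larger than that between the mutant libraries. GAP1 (YKR039W, chromosome XI, 515063 to 516871, plus strand), the general amino acid permease, had 116 and 29.5 CPM in WT against 44.3 and 35.9 CPM in mutant. WT replicate 1 was thus far above the rest, while WT replicate 2 was the lowest library, and the groups overlapped. The log2 fold change of -0.86 (SE 0.59, adjusted p = 0.779, edgeR) from all libraries became 0.47 without WT replicate 1 (adjusted p = 0.64, edgeR) and -1.51 without WT replicate 2 (adjusted p = 1.94e-13, edgeR). In such fits the remaining WT library is assumed to vary like the mutant pair. AGP1 (YCL025C), a permease of broad specificity, had 404 and 133 CPM in WT against 168 and 158 CPM in mutant. Here too the mutant libraries lay between the WT libraries, and the log2 fold change was -0.72, or 0.29 without WT replicate 1.

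WT replicate 1 was also the highest library for the 3 ammonium transporters. MEP2 (YNL142W, chromosome XIV, 357453 to 358952, plus strand), the high-affinity member that also acts as a sensor for filamentous growth, had 106 and 19.8 CPM in WT against 25.5 and 35.9 CPM in mutant. It was 5.38-fold higher in WT replicate 1 than in WT replicate 2, and the mutant libraries stood between them. MEP1 (YGR121C) had 29.9 and 10.6 CPM in WT against 11.2 and 14.4 CPM in mutant, again with the mutant values between those of WT. MEP3 (YPR138C) had 34.5 and 17.4 CPM in WT against 16.9 and 22.6 CPM in mutant, with mutant replicate 1 just under WT replicate 2. The log2 fold changes of -1.07 for MEP2, -0.71 for MEP1 and -0.43 for MEP3 became 0.58, 0.21 and 0.12 without WT replicate 1. MEP1 and MEP3 proteins are 80.1% identical over 482 aligned residues and MEP1 and MEP2 43.0% over 474, but none of the coding sequences shares a 28-base stretch with another. Per kilobase of coding length, the mean over all libraries was 31.2 CPM for MEP2, 15.5 for MEP3 and 11.2 for MEP1. In WT replicate 2, however, MEP2 had 13.2 CPM per kilobase and MEP3 11.8, so that the lead of MEP2 rested largely on the other libraries.

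PUT4 (YOR348C), the proline permease, had 65.6 and 26.5 CPM in WT against 24.9 and 28.9 CPM in mutant. Outside WT replicate 1 its libraries lay within 1.16-fold of each other, and the log2 fold change moved from -0.80 to -0.00 when that library was left out. The permeases for allantoin, allantoate and GABA were barely detected. DAL5 (YJR152W), for allantoate, had 147 and 8 counts in WT and 13 and 1 in mutant, or 4.95 CPM of the plain total (95% Wilson interval 4.22 to 5.82) in WT replicate 1 and 0.784 (0.397 to 1.55) in WT replicate 2. The intervals in mutant were 1.00 to 2.94 and 0.0624 to 2.00 CPM, so that WT replicate 1 exceeded each of the other libraries beyond counting error. UGA4 (YDL210W), for GABA, had 55 and 6 counts in WT and 6 and 1 in mutant. DAL4 (YIR028W), for allantoin, had 8 and 8 counts in WT and 3 and 3 in mutant, which is too few to compare the strains at this depth. DAL4 was the single permease with counts that was not highest in WT replicate 1.

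Summed over the 9 permeases, WT replicate 1 had 0.0769% of its counts on them (95% Wilson interval 0.0759% to 0.0779%). The share was 0.0240% (0.0231% to 0.0250%) for the other WT library and 0.0302% and 0.0284% for the mutant libraries. Of the 7 permeases tested, each had a log2 fold change below 0 with all libraries (background 51.6%, or 73.5% of genes with a hydrophobic segment), with a median of -0.80, and 6 were above 0 without WT replicate 1 (46.8% of genes with a segment), with a median of 0.29. Without WT replicate 1 no member passed at the adjusted threshold, where 0.745% of all genes were called. Without WT replicate 2, 11 members were called lower in mutant (background 14.9%) and 2 higher (background 4.35%). The 11 include all 7 permeases, beside 38.7% of all genes with a hydrophobic segment called lower in that fit. All 7 encode a hydrophobic segment, and over the 1503 genes tested of that class the median was -0.23, or -0.02 without WT replicate 1. That class also holds soluble enzymes such as DUR1,2 and CAR2, so it is not a background of permeases alone.

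**Figure D2:**
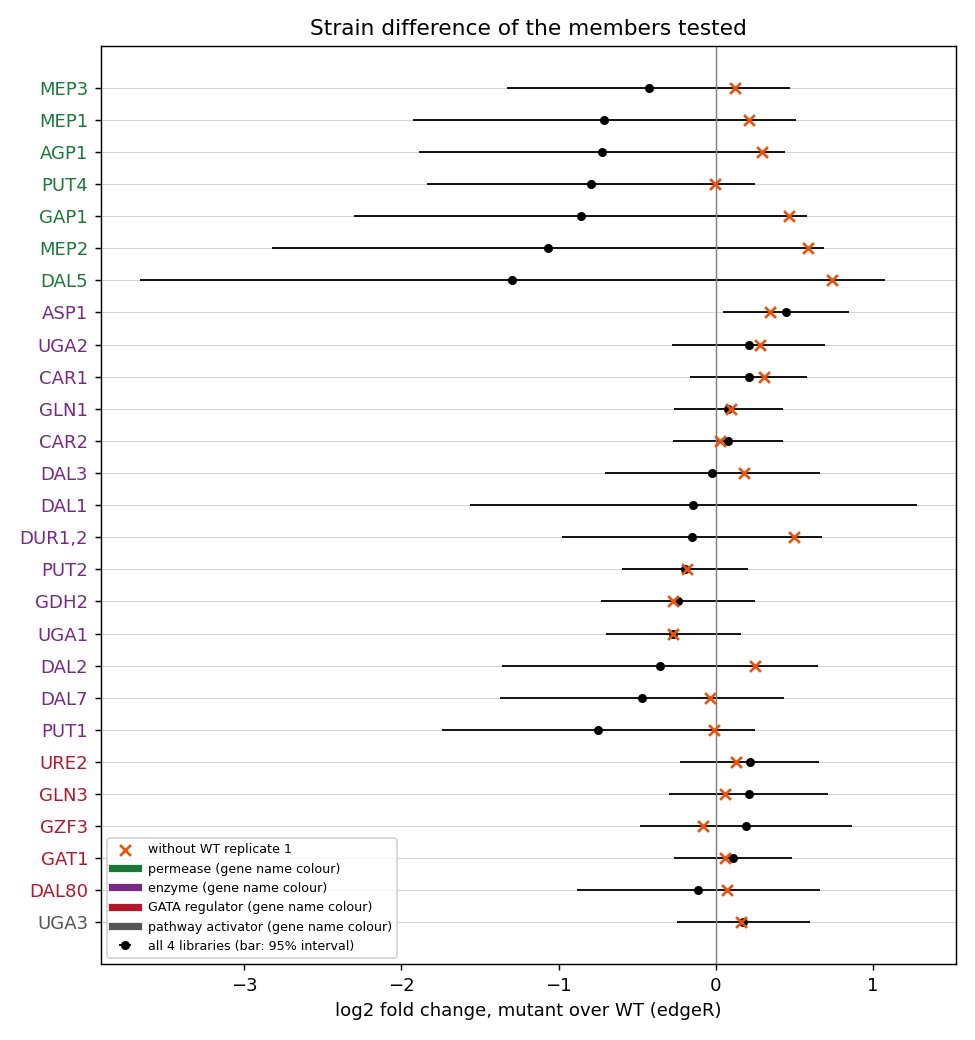
Log2 fold change, mutant over WT, of the 27 members tested, with all 4 libraries (dots, bars giving 95% intervals) and without WT replicate 1 (crosses; DAL1 then falls below the filter). Only the interval of ASP1 lies clear of 0 with all libraries, before adjustment, and the crosses of the permeases lie at or above 0, from -0.00 for PUT4 to 0.74 for DAL5.

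Of the enzymes, those of arginine use differed little among the libraries. CAR1 (YPL111W), arginase, had 232 and 203 CPM in WT against 255 and 248 CPM in mutant, both mutant libraries lying above both WT libraries by a small margin. Its log2 fold change was 0.21, with a 95% interval from -0.17 to 0.58 (adjusted p = 0.806, edgeR). CAR2 (YLR438W), the ornithine aminotransferase that takes ornithine on toward proline, had 307 and 327 CPM in WT against 325 and 343 CPM in mutant, overlapping groups, and a log2 fold change of 0.08 (95% interval -0.27 to 0.43), or 0.03 without WT replicate 1. Per kilobase CAR1 and CAR2 stood close together, at 234 and 255 CPM on average, and their ranges over the libraries, 203 to 254 and 240 to 269, overlapped. Neither had a GATAAG match in 500 bases.

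The 2 mitochondrial enzymes of proline use showed unequal differences between the WT libraries. PUT1 (YLR142W), proline oxidase, had 36.9 and 16.1 CPM in WT against 15.9 and 15.9 CPM in mutant, with WT replicate 1 2.30-fold above the next library. PUT2 (YHR037W), the dehydrogenase of the following step, had 186 and 184 CPM in WT against 176 and 146 CPM in mutant, with no such difference in WT. The log2 fold changes were -0.75 (SE 0.41) for PUT1, which became -0.01 without WT replicate 1, and -0.20 (SE 0.16) for PUT2, which became -0.19. Both were counted among the 3 members with mutant libraries below WT, the third being UGA1 (YGR019W). For PUT1 this rested on the TMM factors: in CPM of the plain total, mutant replicate 1 (16.4) was above WT replicate 2 (16.2).

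Urea amidolyase, DUR1,2 (YBR208C), which frees ammonium from urea, had 820 and 384 CPM in WT against 535 and 549 CPM in mutant. Its mutant libraries agreed closely and lay between the WT libraries. The log2 fold change of -0.15 (SE 0.34) became 0.50 without WT replicate 1 (adjusted p = 0.335, edgeR) and -0.60 without WT replicate 2 (adjusted p = 0.00652, edgeR). It is marked as having a hydrophobic segment although it is a soluble enzyme, an error of the marking that also touches CAR2, UGA2 (YBR006W), UGA3 (YDL170W) and GAT1 (YFL021W).

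GLN1 (YPR035W), glutamine synthetase, was by far the most abundant member, with 4251 and 4148 CPM in WT against 4320 and 4549 CPM in mutant. It alone held most of the counts on the members, whose summed share of a library was 0.733%, 0.626%, 0.686% and 0.658% with it and 0.305%, 0.208%, 0.242% and 0.223% without it, in the order WT replicates 1 and 2, mutant replicates 1 and 2. Its log2 fold change was 0.08, with a 95% interval from -0.27 to 0.43. GDH2 (YDL215C), the NAD-dependent glutamate dehydrogenase that releases ammonium, had 127 and 135 CPM in WT against 127 and 93.2 CPM in mutant, the last library alone being low. UGA1, GABA transaminase, had 76.4 and 75.3 CPM in WT against 58.1 and 68.1 CPM in mutant, a log2 fold change of -0.27 (95% interval -0.70 to 0.16). UGA2, succinate semialdehyde dehydrogenase, had 24.97 and 23.2 CPM in WT against 29.8 and 25.5 CPM in mutant. UGA3, the activator of the GABA genes, had 37.3 and 37.8 CPM in WT against 41.8 and 42.9 CPM in mutant. UGA1 was thus lower, and UGA2 and UGA3 higher, in both mutant libraries than in both WT libraries, none past the adjusted threshold. For UGA2 this rested on the TMM factors: in CPM of the plain total, mutant replicate 2 (24.4) was below WT replicate 1 (25.2).

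ASP1 (YDR321W), the cytosolic asparaginase, had the largest log2 fold change above 0 among the members. It had 123 and 141 CPM in WT against 172 and 189 CPM in mutant, or 132 ± 12.6 and 180 ± 12.2 CPM (SD, n = 2 each), with no overlap. The log2 fold change was 0.45 (SE 0.16, 95% interval 0.05 to 0.85), with an unadjusted p of 0.0338 and an adjusted p = 0.755 (edgeR, over all genes). It stayed between 0.35 and 0.54 when any 1 library was left out, and passed the adjusted threshold only without WT replicate 2 (adjusted p = 0.0266, edgeR). ASP3, the secreted asparaginase induced by nitrogen starvation, has 4 copies on chromosome XII (YLR155C, YLR157C, YLR158C and YLR160C), from 469317 to 487289, whose proteins of 362 residues are identical. All of their 28-base stretches occur in another coding sequence, and all 4 had 0 counts in every library. The limit that a 0 sets, 3 counts, comes to 0.100 CPM in WT replicate 1 and 1.11 CPM in mutant replicate 2. Of the 85 coding sequences with at least 95% of such stretches shared, 70 were at 0, and how reads with several matches were counted is not given in the sources used here, so the 0 does not show that ASP3 carried no ribosomes. Whether 74D-694 carries these copies was not tested.

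The allantoin genes form a cluster on chromosome IX, between 406260 and 415617 in R64. In order it holds DAL1 (allantoinase), DAL4 (the permease), DAL2 (allantoicase), DCG1, which is no member and has no assigned role here, DAL7 (a malate synthase) and DAL3 (ureidoglycolate lyase). Levels per kilobase spanned a wide range within it: the mean over the libraries was 35.9 CPM per kilobase for DAL3 (YIR032C), 12.2 for DCG1, 10.7 for DAL2 (YIR029W), 6.51 for DAL7 (YIR031C), 0.888 for DAL1 (YIR027C) and 0.333 for DAL4. The ranges of DAL2 and DAL7 over the libraries overlapped, as did those of DAL2 and DCG1 and those of DAL1 and DAL4, while DAL3 lay above all others in every library. DAL2 had 16.4 and 7.88 CPM in WT against 8.34 and 11.5 CPM in mutant. DAL7 had 15.7 and 8.95 CPM in WT against 7.57 and 11.1 CPM in mutant. DAL3 had 24.2 and 17.8 CPM in WT against 17.2 and 25.2 CPM in mutant. For all 3, mutant replicate 2 was above mutant replicate 1, and the groups overlapped. Their log2 fold changes of -0.35, -0.47 and -0.02 became 0.25, -0.04 and 0.18 without WT replicate 1. DAL1 had only 52 and 8 counts in WT and 10 and 3 in mutant. DCG1, between DAL2 and DAL7, had 7.12 and 9.54 CPM in WT against 10.3 and 8.88 CPM in mutant, WT replicate 1 being the lowest. None of the 5 genes of the cluster that were tested passed.

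**Figure D3:**
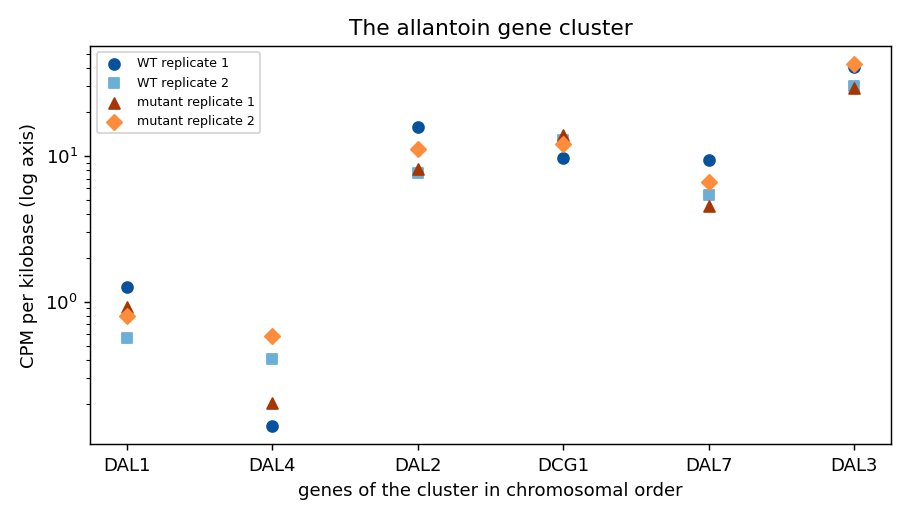
CPM per kilobase of coding length (log axis) for the 6 genes of the allantoin cluster in chromosomal order, 1 symbol per library. DAL3 is the highest gene in every library, DAL1 and DAL4 lie near or below 1 CPM per kilobase, and WT replicate 1 is the highest library for DAL1, DAL2 and DAL7 but the lowest for DAL4 and DCG1.

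The log2 fold changes of the 5 regulators ran from -0.11 to 0.21, and none passed the test. GAT1, an activator, had 122 and 131 CPM in WT against 137 and 136 CPM in mutant, both mutant libraries above WT. In CPM of the plain total, however, mutant replicate 2 (130) was below WT replicate 2 (132). The log2 fold change of GAT1 was 0.11 (95% interval -0.27 to 0.49), or 0.06 without WT replicate 1. GLN3 (YER040W), the other activator, had 24.9 and 31.1 CPM in WT against 33.4 and 31.1 CPM in mutant, and the groups overlapped. The value of 0.21 for its log2 fold change became 0.06 without WT replicate 1. URE2 (YNL229C), which binds GLN3 and whose protein can form the prion [URE3], had 60.8 and 69.0 CPM in WT against 80.5 and 69.6 CPM in mutant. Mutant replicate 2 stood barely above WT replicate 2, and in CPM of the plain total it was below, at 66.5 against 69.5. The log2 fold change was 0.21 (95% interval -0.23 to 0.66), or 0.13 without WT replicate 1. GZF3 (YJL110C), a repressor, had 18.8 and 29.0 CPM in WT against 29.6 and 24.0 CPM in mutant, overlapping groups with WT replicate 1 the lowest. Without WT replicate 2 it passed as higher in mutant (log2 fold change 0.55, adjusted p = 0.0427, edgeR), while without WT replicate 1 the value was -0.08. DAL80 (YKR034W), the repressor that is itself under nitrogen control, was the scarcest regulator, with 5.28 and 4.38 CPM in WT against 5.01 and 3.70 CPM in mutant from 10 to 158 counts, and a log2 fold change of -0.11 that became 0.07 without WT replicate 1. Per kilobase the mean levels were 85.8 CPM for GAT1, 65.7 for URE2, 15.3 for GZF3, 13.7 for GLN3 and 5.67 for DAL80. The ranges over the libraries of GZF3 (11.3 to 17.9) and GLN3 (11.4 to 15.2) overlapped, whereas those of the other neighbours in this order did not.

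The difference between the WT libraries was itself uneven over the members. WT replicate 1 was the highest of the 4 libraries for 15 of 27 members (background 34.2%), among them all 7 permeases (62.9% of all genes with a hydrophobic segment), 7 of 14 enzymes and 1 of 5 GATA regulators. Of all genes with no segment it was highest for 22.6%. It was at least 2-fold above WT replicate 2, on the log2 CPM scale with a prior count of 2, for 10 of 27 members (background 8.22%). Among members with a hydrophobic segment these were 7 of 12, against 25.4% of all genes tested with a segment. Those without a segment were PUT1, DAL1 and DAL2, 3 of 15, against 1.27% of all genes tested with none. For DAL1 this rested on 52 and 8 counts, and its Wilson intervals (1.34 to 2.30 and 0.397 to 1.55 CPM of the plain total) overlapped. The log2 difference was 1.19 for PUT1, 1.04 for DAL2, 1.02 for DAL1 and 0.80 for DAL7, each above the 95th percentile of genes with no segment (0.56). For the permeases it had a median of 1.604, from 0.98 for MEP3 to 2.44 for DAL5, against a median of 0.40 and a 95th percentile of 1.55 over all genes with a segment. MEP2, GAP1, AGP1 and DAL5 lay above that percentile. The class with a segment also holds soluble proteins marked in error, such as DUR1,2 and CAR2. It is therefore not a background of permeases alone. The GATA regulators lay between -0.62 and 0.26, and CAR1, CAR2, GDH2, GLN1, PUT2, UGA1, UGA2 and ASP1 between -0.20 and 0.19. WT replicate 1 is also the deepest library, and whether depth or the profile of that library has a part in these differences was not tested.

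**Figure D4:**
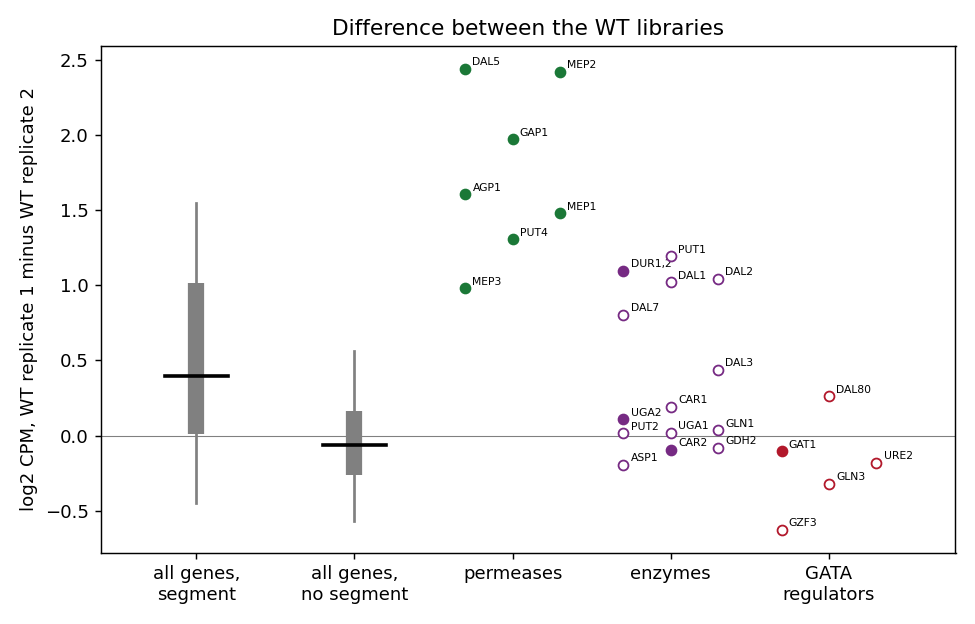
Log2 CPM of WT replicate 1 minus WT replicate 2 (prior count 2). For all genes with and without a hydrophobic segment, the line is the median, the thick bar the 25th to 75th percentile and the thin bar the 5th to 95th; members are points, filled where the protein has a segment. All 7 permeases lie above 0.9, PUT1, DAL1, DAL2, DAL7 and DUR1,2 lie between 0.80 and 1.19, and the GATA regulators lie at or below 0.26.

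Against WT replicate 2 alone, the members lay mostly on the other side. The mean of the mutant libraries was above WT replicate 2 for 21 of 27 members on the log2 CPM scale (background 49.8%), with a median of 0.12, beside a median of -0.00 over all genes tested. Of the 11 further genes under nitrogen catabolite repression described below, only 3 were above 0, with a median of -0.14. Among the members, the largest differences were those of MEP2 (0.61), DAL1 (0.53), DUR1,2 (0.50) and GAP1 (0.43). That of DAL1 rested on 8 counts in WT replicate 2 and 10 and 3 in mutant, and its Wilson intervals in these libraries overlapped. Each of the 7 permeases was above 0 (45.5% of all genes with a hydrophobic segment). In edgeR's fit without WT replicate 1, DUR1,2, MEP2 and GAP1 had unadjusted p under 0.05, 3 of 26 members against a background of 6.91%, and adjusted p of 0.335, 0.397 and 0.64. This rests on 1 WT library, and the comparison has no replicate on that side.

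Members with more GATAAG matches in 500 bases tended to be those with the larger difference between the WT libraries. The median difference was 1.02 for the 15 tested members with at least 2 matches, 0.02 for the 3 with 1 match and 0.02 for the 9 with none. Among members with a hydrophobic segment it was 1.48 for 9 with at least 2 matches and 0.11 for 3 with none, and among members with no segment 0.62 for 6 and -0.03 for 6. The 3 were PUT4, at 1.30, and CAR2 and UGA2, soluble enzymes marked in error, at -0.09 and 0.11. The 9 were all other permeases tested, with DUR1,2, UGA3 and GAT1, so this split does not separate matches from the kind of protein. The 6 with no segment and at least 2 matches were DAL1, DAL2, DAL3 and DAL7, all of the chromosome IX cluster, with DAL80 and GZF3. The split of members with no segment thus does not separate matches from membership of that cluster. Exceptions included PUT4, which had no match and a difference of 1.30, and PUT1, with 1 match and 1.19. In the other direction, GAT1, GZF3 and UGA3 had 4, 3 and 2 matches and differences of -0.10, -0.62 and -0.02. DAL3 and DAL80, with 5 and 3 matches, had differences of only 0.44 and 0.26. Among non-member genes with no hydrophobic segment, the median was -0.06 for 117 genes with at least 2 matches and -0.06 for 2891 with none. Among non-member genes with a segment it was 0.84 for 50 genes with at least 2 matches and 0.37 for 1136 with none. Only the members were taken out of these sets, not the further genes under nitrogen catabolite repression described below. These are descriptions of 2 libraries, and a match is not shown to be a bound site.

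**Figure D5:**
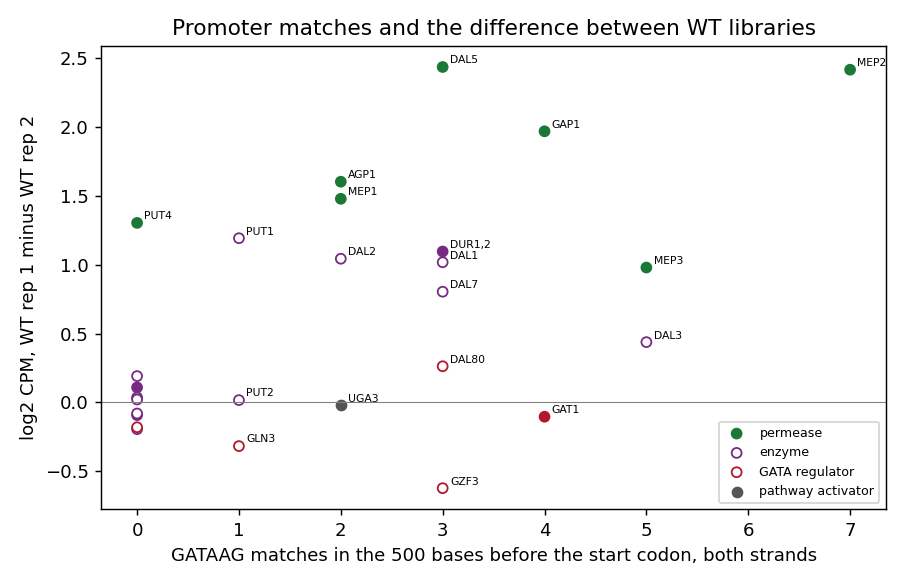
GATAAG matches in the 500 bases before the start codon against the log2 CPM difference between WT replicates 1 and 2, for the 27 members tested; filled points have a hydrophobic segment. MEP2 with 7 matches and DAL5 with 3 lie near 2.4, while GAT1, GZF3 and GLN3 lie below 0 despite 4, 3 and 1 matches.

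Other genes of nitrogen control were read from lists that hold no member. Of 11 further genes under nitrogen catabolite repression, all tested, none passed the adjusted threshold in either direction, and 4 had an unadjusted p under 0.05 with all libraries, or 1 without WT replicate 1 (backgrounds 5.45% and 6.91%). A log2 fold change below 0 was found for 10, against 51.6% of all genes and 73.5% of those with a hydrophobic segment, which 8 of the 11 encode. The median was -0.70, or -0.13 without WT replicate 1 and -0.92 without WT replicate 2. DUR3, the urea permease, had 157 and 30.3 CPM in WT against 39.8 and 41.8 CPM in mutant. The mutant thus lay between the WT values, as for MEP2, AGP1 and GAP1. The other permeases of the list differed from this. PTR2, DIP5 and CAN1 had both mutant libraries below both WT libraries (background 17.9%), and for OPT2 mutant replicate 1 was the lowest library. WT replicate 1 was nevertheless the higher WT library for each. The WT values were 124 and 86.9 CPM for PTR2, 273 and 92.7 for DIP5, 156 and 58.7 for CAN1, and 661.5 and 248 for OPT2. PEP4, the vacuolar protease A, had 445 and 316 CPM in WT against 258 and 211 CPM in mutant, and CPS1, a vacuolar carboxypeptidase, 324 and 121 CPM in WT against 102 and 86.9 CPM in mutant. For both, each mutant library lay below each WT library, with log2 fold changes of -0.70 (adjusted p = 0.755, edgeR) and -1.24 (adjusted p = 0.755, edgeR). Without WT replicate 1 these became -0.42 and -0.35. Of 12 pathway-specific and external amino acid regulators none passed, with a median of 0.09, or 0.03 without WT replicate 1. ARG80, a regulator of arginine genes, had 10.8 and 8.76 CPM in WT against 14.3 and 16.3 CPM in mutant (log2 fold change 0.62, adjusted p = 0.755, edgeR), and STP1, the factor released by the amino acid sensor, had a log2 fold change of 0.17. Without WT replicate 1 these became 0.77 for ARG80 and 0.01 for STP1. None of the 3 genes of ammonia assimilation passed: GDH1, the NADP-dependent glutamate dehydrogenase, had a log2 fold change of 0.10 and GLT1, glutamate synthase, of -0.13, which became 0.31 and 0.15 without WT replicate 1. None of 10 genes of the TORC1 kinase complex and its nitrogen branch passed either, with a median of 0.06, NPR3 at -0.31 and the phosphatase SIT4 at 0.17. The last 2 became 0.02 and 0.08 without WT replicate 1.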

How the data were processed

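Ribosome-protected fragments were measured in 2 libraries of each strain. The authors deposited 1 table of raw counts for coding sequences, with a column for each library. Per the submitters' processing notes, Bowtie2, DESeq2 and sacCer3 were used; versions, counting tool, strand setting, annotation and the handling of reads with several matches are not given in the sources. The header and the other lines differ in their tabs, so columns were named by order of the filled fields. The replicates' counts range over 2826895 to 29671498 per library, and intervals and limits cover counting error only.

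Genes were tested with edgeR 4.0.16 (quasi-likelihood, two-sided, TMM, filterByExpr with a minimum count of 10 and a minimum total of 15, Benjamini-Hochberg at 0.05 over 5233 genes) in R 4.3.3. The code was checked on simulated data. These held no library with a profile of its own, so the check says nothing of power or error with a library such as WT replicate 1. DESeq2 1.42.0 was an alternative, beside another normalization, no filter, a replicate block and leaving out each library. Names, proteins and promoters came from RefSeq R64: 5917 of 6600 rows matched. A hydrophobic segment is a window of 19 residues with a mean Kyte-Doolittle hydropathy of at least 1.6. Shared sequence was measured in stretches of 28 bases. Protein tables were not used here, so no residues are printed. The members and lists were chosen with earlier results of these data known. Named genes are all members, and of each other list the 2 with the smallest unadjusted p, with DUR3, the other permeases of its list, OAZ1 and the neighbouring DCG1 added. Values were computed with Python 3.11.15, pandas 2.3.3, SciPy 1.17.1 and Biopython 1.88.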

Additional observations from a re-analysis of the deposited data

How the results depend on the processing

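Under the other normalization, without the filter on low counts, with TMM factors from genes with no hydrophobic segment, under DESeq2 and with the replicate number as a block, each member with a fitted value kept the direction it had with all libraries, and none was called. The counts of genes called over the whole table stayed at 0 there, except for 4 genes called lower by DESeq2. Leaving out 1 library gave 0 to 228 genes called higher and 0 to 780 called lower over the whole table, and 0 to 2 members called higher and 0 to 11 called lower, the upper ends being those without WT replicate 2. The median log2 fold change of the members was then between -0.26 and 0.13, that of the permeases between -1.31 and 0.29, that of the enzymes between -0.23 and 0.094 and that of the GATA regulators between 0.06 and 0.31. With the replicate block the median of the permeases was -0.61 and no gene was called. The differences between replicates of the 2 strains had a correlation of 0.04 over 5233 genes. With WT replicate 1 apart in profile, this value cannot tell whether samples of the same number were prepared together. The members whose direction turned when some library was left out, with the range of their log2 fold change, were AGP1 (-1.31 to 0.29), DAL2 (-0.81 to 0.25), DAL3 (-0.29 to 0.26), DAL5 (-3.01 to 0.74), DAL80 (-0.39 to 0.072), DUR1,2 (-0.60 to 0.49), GAP1 (-1.51 to 0.47), GZF3 (-0.080 to 0.55), MEP1 (-1.28 to 0.21), MEP2 (-1.84 to 0.58) and MEP3 (-0.86 to 0.12). The cause was not tested. Depth limits DAL1, DAL4, DAL5 and UGA4, which had at most 13 counts in each library other than WT replicate 1.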
